A study of Mus musculus with 8 samples.

Results

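The translation initiation factors described here are the 56 genes, of 21883 protein-coding mouse genes on 21 chromosomes, whose symbol begins with Eif and a digit. They were chosen by symbol, and their data are the phospho-CREB1 peaks with a summit no more than 1000 bp from one of the gene's ends, called gene-end peaks below. The family was picked with earlier results of these same peak lists known, so its peak counts are given as a description, without a test. The lists come from chromatin immunoprecipitation followed by sequencing (ChIP-seq) for CREB1 in its phosphorylated form in skeletal muscle taken from male Balb/c mice. The title of the study asks about cAMP and CREB1 signaling in cancer cachexia, the muscle wasting that accompanies tumors. C26 mice were injected under the skin with C26 colon adenocarcinoma cells at 2 months of age, and CTRL mice were their controls. Each group had 2 phospho-CREB1 libraries, and 4 input libraries (sonicated chromatin without immunoprecipitation) made up the 8 samples.

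The protocol adds that tumor-bearing mice received rolipram, an inhibitor of phosphodiesterase 4, or its vehicle of ethanol in saline, and does not say which of these mice gave the chromatin. What the CTRL mice were injected with and the age at sampling are not given in the sources used here, and no engineered allele is named for either group. The tissue is gastrocnemius in the sample labels and quadriceps in the extraction protocol, and that protocol names both a CREB and a phospho-CREB1 antibody where the titles name phospho-CREB1. Whether the 2 libraries of a group came from separate animals is not stated, so the spread between them may be technical. Peak lists hold no expression values, so muscle markers were not checked.

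Initiation factors bring the small ribosomal subunit and the initiator tRNA to an mRNA, find the start codon and join the large subunit. The rate of the process is set mainly at eIF2, which is shut down when its alpha subunit is phosphorylated, and at the cap-binding protein eIF4E, which is held back by binding proteins under the control of mTOR. In muscle both points respond to nutrients, hormones and stress. CREB1 is a transcription factor that is phosphorylated in response to cAMP and binds the palindrome TGACGTCA, the cAMP response element, or its shorter form TGACG.

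Promoter sequences of 44 of the 56 genes, from 250 bases before to 50 bases after an annotated start, were read from RefSeq annotation of GRCm38.p6, the build of the peaks. None of the 44 held TGACGTCA, against 2.54% of the 17491 protein-coding genes with such a window. TGACG was held on at least 1 strand by 22 (50%), against 26.2% of those genes. The stretches shown first belong to members with peaks in at least 3 libraries that had some TGACG within 50 bp of the strongest summit in each of them. At Eif4a3 it took both stretches to meet this, since the first lay 63 bp from the C26 replicate 2 summit and the second 68 bp from that of C26 replicate 1. They let the reader see letters near the summits. Not every summit lies within a printed stretch, and those of Eif4e2 and Eif4enif1 all lie outside. Each is written 5′ to 3′ in the direction of its gene, and capitals mark TGACG or its reverse complement CGTCA.
Eif2b1, chr5:124579105-124579131, minus strand: gcgccgacgagTGACGccacgcacgcc
Eif2b1, chr5:124579082-124579101, minus strand: gacgacggaacTGACGcgcg
Eif4a3, chr11:119300087-119300131, minus strand: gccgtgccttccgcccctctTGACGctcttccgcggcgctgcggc
Eif4a3, chr11:119300061-119300105, minus strand: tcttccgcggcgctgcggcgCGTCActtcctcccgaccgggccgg
Eif4ebp2, chr10:61452830-61452874, minus strand: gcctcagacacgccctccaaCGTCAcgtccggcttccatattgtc
Eif2d, chr1:131153181-131153207, plus strand: acctggcgctgCGTCAgttccgggcca
Eif4e2, chr1:87213866-87213910, plus strand: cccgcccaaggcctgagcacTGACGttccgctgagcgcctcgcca
Eif4enif1, chr11:3202328-3202354, plus strand: tccgcccctcaTGACGcgtgggaacgc

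The stretches of Eif4a3, Eif4ebp2 and Eif4e2 lie just before the gene span, those of Eif2b1 and Eif2d lie inside it, and that of Eif4enif1 crosses its first base. Among members with peaks in all 4 libraries and no TGACG in their window, Eif2ak3 ranked first by its weaker CTRL peak. Its lower percentile of −log10 q within the 2 CTRL lists was 86.3. In CTRL replicate 2 alone, Eif3j1 stood higher, at 91.5 against 86.3. Its stretch, which ends before the gene span, is shown for contrast and has no capitals.
Eif2ak3, chr6:70844301-70844387, plus strand: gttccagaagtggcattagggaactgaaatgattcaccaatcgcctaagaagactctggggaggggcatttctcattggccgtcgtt

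The initiation factor genes carried gene-end peaks more often than protein-coding genes at large, in every library. In CTRL, replicate 1 had a gene-end peak at 43 of the 56 genes (76.8%) and replicate 2 at 49 (87.5%). In C26, replicate 1 had one at 39 (69.6%) and replicate 2 at 23 (41.1%). Of all 21883 protein-coding genes the shares were 33.9%, 40.1%, 26.1% and 14% in the same order. Both CTRL libraries were above both C26 libraries, for the members as for all genes. The mean over the 2 CTRL libraries was 46 ± 4.24 members (SD, n = 2), and over the 2 C26 libraries 31 ± 11.3 (SD, n = 2). The C26 libraries, with 39 and 23 members, differed from each other by more than the group means did, and 2 libraries against 2 cannot give a two-sided exact permutation p below 0.333.

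The lists themselves differed in length, with 10835 and 14975 peaks in the CTRL libraries against 7482 and 4051 in C26. When each list was cut to its 4051 strongest peaks, the length of the shortest, a gene-end peak remained at 26 members in each CTRL library, at 30 in C26 replicate 1 and at 23 in C26 replicate 2. At equal length the groups therefore overlapped, and C26 replicate 1 had the most members of the 4. Over all protein-coding genes the shares at equal length were 17.3% and 18% in CTRL and 16.9% and 14% in C26. Read depth is unknown, and a gene without a peak is one where no peak passed the authors' threshold of q = 0.05, which does not show that CREB1 was absent. List length moved with the group, so the parts of list length and of tumor in these counts cannot be told apart.

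By pattern, 42 of the 56 genes (75%) had gene-end peaks in both CTRL libraries, against 32.1% of all protein-coding genes. Both C26 libraries had one at 22 members (39.3%, against 13% of all genes), and these 22 were the members with a peak in all 4 libraries (against 12.7%). Without C26 replicate 2, the count for C26 was 39 and that for all remaining libraries 37. A peak in both CTRL and neither C26 library was found at 4 members, or 7.14%, against 7.4% of all genes. This count rested on single libraries and on the threshold, as it was 19 without C26 replicate 1, 10 without CTRL replicate 1 and 8 when −log10 q had to be at least 5. No member had a peak in both C26 libraries and in neither CTRL library, a pattern seen at 0.0274% of all genes. No gene-end peak in any library was found at 6 members (10.7%), against 57.7% of all genes. With the lists at equal length, 20 members kept a peak in both CTRL libraries (14.6% of all genes), 19 in both C26 libraries (11.1%) and 15 in all 4 (9.68%). At that length 2 members were CTRL-only (1.06% of all genes), namely Eif2a and Eif4e, and 1 was C26-only (0.384%), namely Eif2b2. Of the 4 CTRL-only members in the full lists, Eif2ak1 kept its peak in CTRL replicate 2, Eif4e1b in CTRL replicate 1, and Eif3m and Eif4h in neither.

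**Figure D1:**
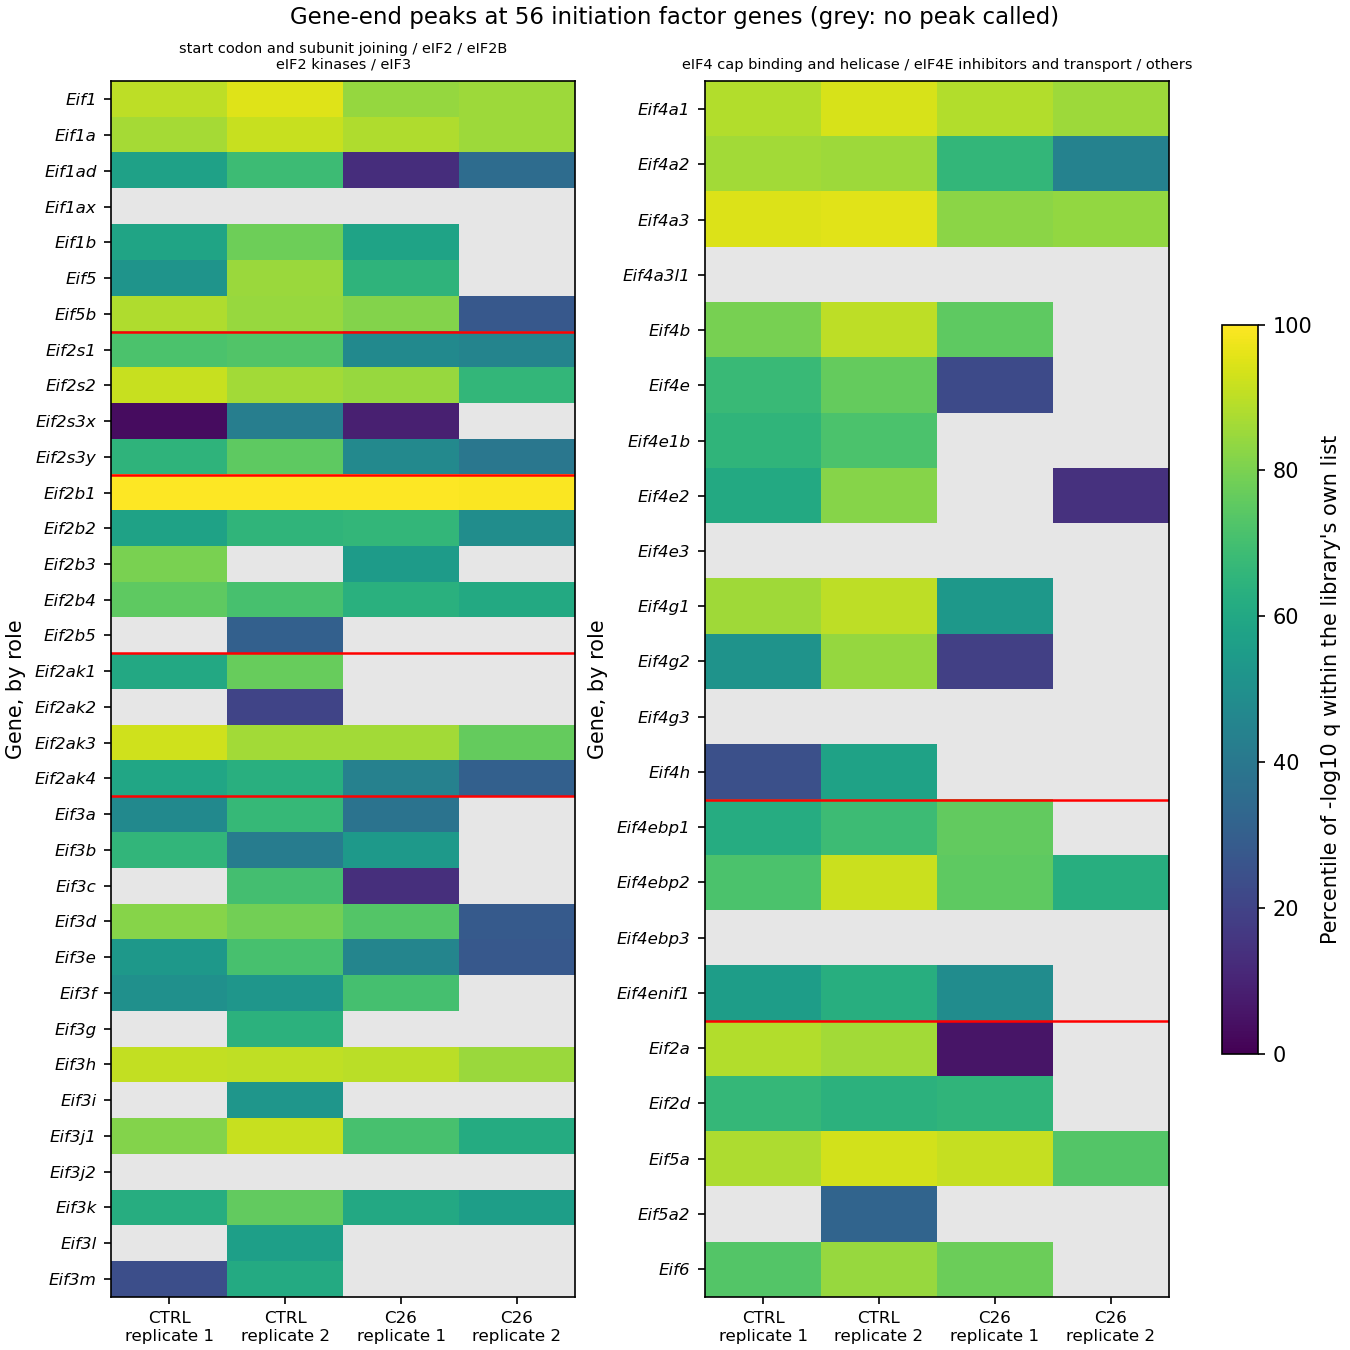
Each row is 1 of the 56 initiation factor genes, in groups by role divided by red lines, and each column is 1 library. Color gives the percentile of −log10 q of the gene's strongest gene-end peak within that library's own list (100 is the strongest), and grey marks no gene-end peak. Eif2b1 is near 100 in all 4 columns, and the C26 replicate 2 column has the most grey, with peaks at 23 genes.

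Among genes with peaks in both CTRL libraries, the pattern of the members in C26 can be set beside that of other genes. Of the 42 members, 22 (52.4%) had a peak in both C26 libraries too, against 39.6% of the 7035 protein-coding genes of this kind. C26 replicate 1 alone kept a peak at 15 of the 42 (35.7%, against 35.3%), and C26 replicate 2 alone at 1, Eif4e2 (2.38%, against 2.1%). The 4 members with no C26 peak made up 9.52%, against 23%. The difference in the first and last of these shares was not tested, because the family was chosen with the results known.

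Peak strength in CTRL went along with these classes. Strength was taken as the percentile of −log10 q within the library's own list, and the lower of the 2 CTRL percentiles was used for each gene. Its median was 83.1 for the 22 members with peaks in both C26 libraries, 58.3 for the 15 with one in C26 replicate 1 alone and 42.5 for the 4 with none. For all protein-coding genes the same medians were 84.9, 58.2 and 32.0. Of 16 members with a lower CTRL percentile of at least 75, all 16 had a C26 replicate 1 peak and 13 a C26 replicate 2 peak, where all genes of that band gave 99.1% and 78.3%. Of 21 members between 50 and 75 the counts were 18 and 10 (all genes 80.6% and 33.1%), and of 5 members under 50 they were 3 and 0 (all genes 45.5% and 11.9%). In the members as in the whole annotation, the share with a C26 peak was higher in the bands of stronger CTRL peaks, with exceptions such as Eif2s3x, which had a C26 replicate 1 peak at a lower CTRL percentile of 3.30.

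eIF2 delivers the initiator tRNA, and all 4 of its genes had peaks in both CTRL libraries. Folds in the following are the enrichment over input at the summit as the authors' peak caller wrote it, on a scale of each library's own, and are listed in the order CTRL replicates 1 and 2, then C26 replicates 1 and 2. Eif2s1, the alpha subunit on which the stress kinases act, had 8.70, 9.07, 4.58 and 6.74-fold, with summits 257 to 436 bp before its start and the same peak within 1000 bp of an end of Atp6v1d. Eif2s2, the beta subunit, had 17.1, 13.3, 9.26 and 8.38-fold. The gamma subunit has a copy on each sex chromosome. The Y copy Eif2s3y had peaks in all 4 libraries at 9.83, 11.9, 6.30 and 6.42-fold, while the X copy Eif2s3x had 3.72, 6.73 and 4.20-fold and none in C26 replicate 2. The X copy held the weakest CTRL peak of the family, at percentile 3.30 in CTRL replicate 1. The copies are closely related, and how reads that fit both were treated is not given in the sources used here.

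eIF2B is the exchange factor that recharges eIF2 with GTP and is blocked by phosphorylated eIF2. Its 3 regulatory subunits, alpha (Eif2b1), beta (Eif2b2) and delta (Eif2b4), had peaks in all 4 libraries, while the catalytic subunits gamma (Eif2b3) and epsilon (Eif2b5) did not. Eif2b1 had the strongest peak of the family in every library, with 123, 137, 42.8 and 40.3-fold and percentiles of 99.8, 99.9, 99.6 and 99.2. In CTRL replicate 2 this peak spanned chr5:124578729-124579489. Its summits lay 34, 34, 20 and 13 bp into the gene in the 4 libraries, between or on the TGACG letters shown first for this gene, at 9, 9, 7 and 0 bp from the nearest of them. The same peak is also within 1000 bp of an end of Gtf2h3, a subunit of the general transcription factor TFIIH, so it cannot be assigned to either gene. Eif2b2 had 6.19, 9.51, 5.20 and 6.97-fold and Eif2b4 had 7.39, 7.25, 5.32 and 7.88-fold, the latter shared with Snx17. Eif2b3 had a peak in CTRL replicate 1 (9.36-fold) and C26 replicate 1 (4.53-fold), and Eif2b5 in CTRL replicate 2 alone (4.86-fold). Presence at Eif2b3 and Eif2b5 was therefore not shared by the replicates of either group.

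The kinases of eIF2 each sense a different stress. Eif2ak3 (PERK), the sensor of unfolded protein in the endoplasmic reticulum, had 21.3, 15.0, 9.84 and 10.2-fold, with summits 133 to 209 bp before its start in all 4 libraries. Eif2ak4 (GCN2), the sensor of amino acid shortage, had 7.42, 7.45, 5.17 and 5.87-fold. Eif2ak1 (HRI), the kinase regulated by heme, was a CTRL-only member with 7.47 and 12.5-fold, at percentiles 60.5 and 76.8. Eif2ak2 (PKR), activated by double-stranded RNA, had a peak in CTRL replicate 2 alone (4.90-fold). The family of kinases thus held both a strong peak seen in every library and 1 of the 4 CTRL-only members.

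The group of factors for the start codon and subunit joining, in which Eif1ad was also placed, had peaks in both CTRL libraries at 6 of 7 genes. Of these genes, 4 had them in all 4 libraries, Eif1ad among them. Eif1, which guards start codon choice, had 13.6, 27.6, 9.59 and 12.6-fold. Its summit lay 499, 489 and 481 bp after the start in both CTRL libraries and C26 replicate 2, and 77 bp before it in C26 replicate 1, within peaks 853 to 1287 bp wide. Eif1a, a copy of the scanning factor eIF1A, had 17.1, 22.0, 12.1 and 13.2-fold at a position it shares with Tmed7. Eif5b, the GTPase of subunit joining, had 18, 12.6, 9.66 and 5.70-fold and is shared with Txndc9. Its summits were at opposite ends of a broad region, 35 bp after and 706 bp before the start in the CTRL libraries and 8 and 561 bp before it in C26. Eif1ad, which works in maturation of the small ribosomal subunit, had 7.44, 9.40, 3.26 and 6.12-fold, shared with Banf1. Eif1b, a close relative of Eif1, and Eif5, the activator of the eIF2 GTPase, had peaks in both CTRL libraries and C26 replicate 1. No gene-end peak was called at Eif1ax, the X-linked eIF1A gene.

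eIF3, the large scaffold on the small subunit, has 14 genes here. Of them 9 had peaks in both CTRL libraries and 5 in all 4. Those 5 were Eif3d, Eif3e, Eif3h, Eif3j1 and Eif3k. Eif3h was the strongest, with 16.2, 18.1, 14.9 and 12.5-fold and percentiles from 84.8 to 91.0. Eif3j1, the loosely bound subunit, had 12.0, 21.5, 7.63 and 8.04-fold with all 4 summits between 36 and 48 bp before the start. Eif3d, a subunit that can bind the cap itself, had 14.8, 11.8, 7.42 and 5.72-fold. Eif3k had 5.97, 11.4, 5.49 and 7.48-fold beside Map4k1. Eif3e had 6.05, 10.8, 4.13 and 5.70-fold, and its 4 summits fell within 16 bp of each other. Weak and strong members thus both had peaks in all 4 libraries within this 1 complex.

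The rest of eIF3 fell into other patterns. Eif3a, Eif3b and Eif3f had peaks in both CTRL libraries and C26 replicate 1, from 4.10 to 8.61-fold. Eif3m was CTRL-only, with 4.36 and 9.12-fold at percentiles 23.9 and 61.1 and summits 4 and 31 bp before its start. Eif3c had a peak in CTRL replicate 2 and C26 replicate 1 (10.7 and 4.21-fold). Eif3g, Eif3i and Eif3l had one in CTRL replicate 2 alone, at 9.73, 7.63 and 8.36-fold, of which that of Eif3i is shared with Tmem234. Eif3j2, a second copy of the j subunit gene, had none. CTRL replicate 2, the longest list, was the only library with a peak at 6 members in all: these 3 with Eif2b5, Eif2ak2 and Eif5a2.

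The eIF4 group binds the cap and unwinds the mRNA leader. Its helicase genes Eif4a1 and Eif4a2 had peaks in all 4 libraries. Eif4a1 had 16.1, 28.3, 11.6 and 12.6-fold beside Senp3, and Eif4a2, its close relative, had 16.6, 16.7, 6.17 and 6.69-fold. Eif4a3, a relative that serves in the exon junction complex, had 25.1, 32.6, 8.02 and 12.2-fold, the second strongest of the family by its lower CTRL percentile of 94.9. Its summits lay 3 to 108 bp before the start, and the nearest TGACG letters were 12, 2, 42 and 37 bp away. No gene-end peak was called at its copy Eif4a3l1. Eif4b and Eif4h, which stimulate the helicase, differed: Eif4b had 10.7, 18.6 and 7.63-fold in both CTRL libraries and C26 replicate 1, and Eif4h was CTRL-only with 4.55 and 8.51-fold at percentiles 24.5 and 57.5.

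Of the cap-binding genes, Eif4e itself had 9.08, 12.9 and 3.99-fold in both CTRL libraries and C26 replicate 1. Eif4e2, a cap-binding repressor, had 6.03 and 15.3-fold in CTRL and 4.99-fold in C26 replicate 2, and was the sole member of that pattern. Eif4e1b, known from germ cells, was CTRL-only with 8.97 and 9.75-fold, but its summits lay 845 and 839 bp outside the gene span, near Tspan17. Eif4e3 and the scaffold gene Eif4g3 had no gene-end peak. The scaffold Eif4g1 had 2 peaks in both CTRL libraries and C26 replicate 1. The stronger lay 349 to 377 bp past its far end, near Fam131a, with 14.2, 19.6 and 4.71-fold, and that at its start had 9.95, 9.18 and 4.38-fold. Eif4g2 (DAP5), a scaffold that does not bind eIF4E, had 6.15, 15.2 and 4.02-fold in the same libraries.

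Of the genes that hold eIF4E back or move it, Eif4ebp2 had peaks in all 4 libraries, at 7.96, 24.5, 7.63 and 8.24-fold. Its summits were 12, 16, 3 and 18 bp from the CGTCA shown first for this gene, a distance that varied little between libraries. Eif4ebp1 had 8.31, 10.3 and 7.33-fold in both CTRL libraries and C26 replicate 1. Eif4enif1, which carries eIF4E into the nucleus, had 5.16, 6.07 and 4.05-fold in the same libraries, beside Sfi1 and Gm51877. Eif4ebp3 had no gene-end peak. Among the remaining factors, Eif5a, whose hypusine-bearing product helps ribosomes through difficult stretches, had 11.2, 24.6, 13.6 and 9.49-fold. Eif2a, an alternative carrier of initiator tRNA, had 18.2 and 15.5-fold in CTRL and 2.64-fold in C26 replicate 1, where it stood at percentile 5.61 against 88.4 and 86.1 in the CTRL lists. Its peak is shared with Serp1. Eif2d, a recycling factor, had 9.36, 9.79 and 7.52-fold. Eif6, which keeps the large subunit from joining, had 9.56, 16.3 and 8.46-fold, at 619 to 660 bp outside its span and near Mmp24 and BC029722. Eif5a2 had 5.28-fold in CTRL replicate 2 alone.

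Only 1 member sat across the 1000 bp limit. The summits of Eif4ebp1 lay 910, 962 and 981 bp inside its span in CTRL replicates 1 and 2 and C26 replicate 1, and 1026 bp inside in C26 replicate 2, where the peak had 8.14-fold and percentile 61.3 and so was not counted. Eif4e (808 to 850 bp) and Eif4e1b (839 and 845 bp) were the next nearest inside the limit. Among members without a gene-end peak in the library concerned, the next nearest outside it was Eif4g3, with a CTRL replicate 1 peak of 5.07-fold at 1646 bp, which lies 30 bp before another annotated start of that gene. Inside gene spans and beyond the limit there were 3, 10, 6 and 5 further peaks in the libraries in the usual order, at 3, 8, 5 and 4 members. Eif5a had such a peak in all 4 libraries (5.35, 6.37, 2.97 and 4.76-fold), and Eif4a1 had one in both libraries numbered 1 and in C26 replicate 2 (18.5, 9.03 and 11.7-fold) at 1047 to 1114 bp. In CTRL replicate 2 the Eif4a1 gene-end peak was 1890 bp wide.

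In every library but C26 replicate 2, most strongest summits lay within 100 bp of an annotated start, for members as for all genes. Among members with a start in the RefSeq promoter table, the strongest summit was within 100 bp of one for 20 of 35 genes in CTRL replicate 1 (57.1%), 27 of 41 in CTRL replicate 2 (65.9%), 20 of 32 in C26 replicate 1 (62.5%) and 9 of 20 in C26 replicate 2 (45.0%). Over all protein-coding genes the shares were 54.3%, 54.5%, 52.7% and 48.1%. Restricting the count to starts changed the number of libraries with a peak for 0 of the 44 members with a start. Over the 22 members with peaks in all 4 libraries, the summits of a gene spanned a median of 107 bp, from 12 bp at Eif3j1 to 741 bp at Eif5b, and at 10 of them all summits fell within 100 bp. The member peaks had median widths of 708, 770, 505 and 466 bp, against 571, 664, 484 and 456 bp for gene-end peaks of all genes.

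**Figure D2:**
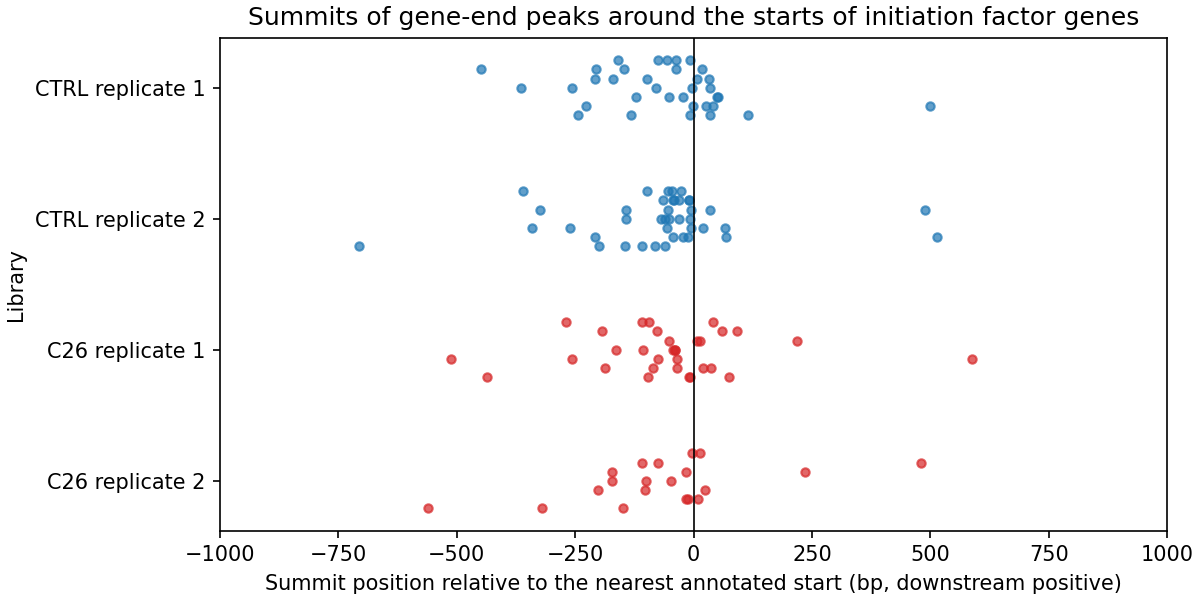
Points are gene-end peaks of initiation factor genes with a summit within 1000 bp of an annotated start, in 1 library per row. The x axis gives the summit's distance in bp from the nearest annotated start, with positive values downstream. For Eif4g1 the weaker peak, at its start, is plotted. Blue marks CTRL and red C26, and the spread of points within a row has no meaning. Of 35, 41, 32 and 20 peaks in the rows from top to bottom, 27, 33, 26 and 15 lie within 200 bp of the start.

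The promoter letters of the members can be set beside those of other genes. TGACGTCA was absent from all 44 member windows, against 2.54% of the 17491 protein-coding genes with a window (445 genes). Among genes with peaks in all 4 libraries, 0 of 19 member windows held it, against 10.5% for all protein-coding genes. Allowing 1 mismatch, 5 of the 44 members (11.4%) had a match, against 14.8% of all genes. TGACG, searched on both strands and contained in every TGACGTCA, was in 20 of 35 member windows with peaks in both CTRL libraries (57.1%) and in 14 of 19 with peaks in all 4 (73.7%). It was in 6 of 16 with peaks in both CTRL libraries but not in all 4 (37.5%). Among all genes the shares were 26.2% in total, 44.9% with peaks in both CTRL libraries, 60.3% with peaks in all 4 and 16% with none, and 20.8% of all 32851 windows in the table held it. The motif share was thus higher in the class with peaks in all 4 libraries, for the members as for all genes. The member classes are small, and the classes with both CTRL libraries include those with all 4, except where stated. These differences were not tested.

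A TGACG in the promoter window was not always near the summit. Among members with both, it was within 50 bp of the strongest summit at 9 of 20 genes in CTRL replicate 1, 13 of 22 in CTRL replicate 2, 9 of 20 in C26 replicate 1 and 5 of 15 in C26 replicate 2, where all genes gave 59.7%, 56.8%, 60.2% and 61.3%. At Eif2b1, Eif4a3 and Eif4ebp2 it was within 50 bp in all 4 libraries. At Eif2ak4 the nearest in the windows was 456 to 565 bp away in all 4, and at Eif3k 209 to 266 bp. Only the promoter windows were searched, so any TGACG outside them was not counted. The Eif1 summits of both CTRL libraries and C26 replicate 2 lay outside the window, and the letters around them were not read. Windows without the letters, such as that of Eif2ak3, also carried peaks in every library, and a match or its absence in this window says nothing about which protein was bound.

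Shared positions were about as common in this family as across the annotation. Of the 42 members with peaks in both CTRL libraries, 13 (31.0%) had a strongest peak whose summit was also within 1000 bp of an end of another protein-coding gene, against 32% of the 7035 genes of this kind. With such peaks left out, 30 members had a peak in both CTRL libraries and 14 in all 4, and Eif2b1, Eif1a, Eif4a1 and Eif5b were among those no longer counted. That setting was chosen after the data were seen.

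Other genes of protein synthesis, in lists chosen with earlier results of these data known, were counted in the same way. Of 43 genes of translation control and elongation, 34 (79.1%) had peaks in both CTRL libraries, 21 (48.8%) in all 4 and 6 (14%) were CTRL-only. Those 6 were Mtor, Rptor and Rictor, which build the mTOR complexes, with the elongation factor gene Eef1b2, Mcts1 and Gcn1, the activator of GCN2. Mtor had 8.96 and 13.9-fold, Rptor 4.84 and 11.4-fold and Rictor 3.39 and 8.53-fold in the CTRL libraries. Other genes of these complexes had peaks in all 4 libraries, with 15.6, 12.4, 5.98 and 4.79-fold at Mlst8 and 12.6, 22.6, 4.68 and 11.2-fold at Akt1s1, both named after their values were seen. The 3 strongest were Abce1, a ribosome recycling factor (93.9, 148, 80.4 and 39.3-fold, shared with Anapc10), Rps6kb2, an S6 kinase (112, 109, 52.5 and 52.7-fold, shared with Carns1), and Rheb, the activator of mTOR (22.7, 39.2, 18.8 and 16.6-fold). Of 84 cytosolic ribosomal protein genes, 67 (79.8%) had peaks in both CTRL libraries, 34 (40.5%) in all 4 and 11 (13.1%) were CTRL-only. For 20 cytosolic aminoacyl-tRNA synthetase genes these counts were 17 (85%), 6 (30%) and 6 (30%). The initiation factors, with 75%, 39.3% and 7.14%, had the lowest share of CTRL-only genes of the 4 lists. The differences between lists were not tested, and the CTRL-only share of the initiation factors rests on the 4 genes whose count moved with single libraries.

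**Figure D3:**
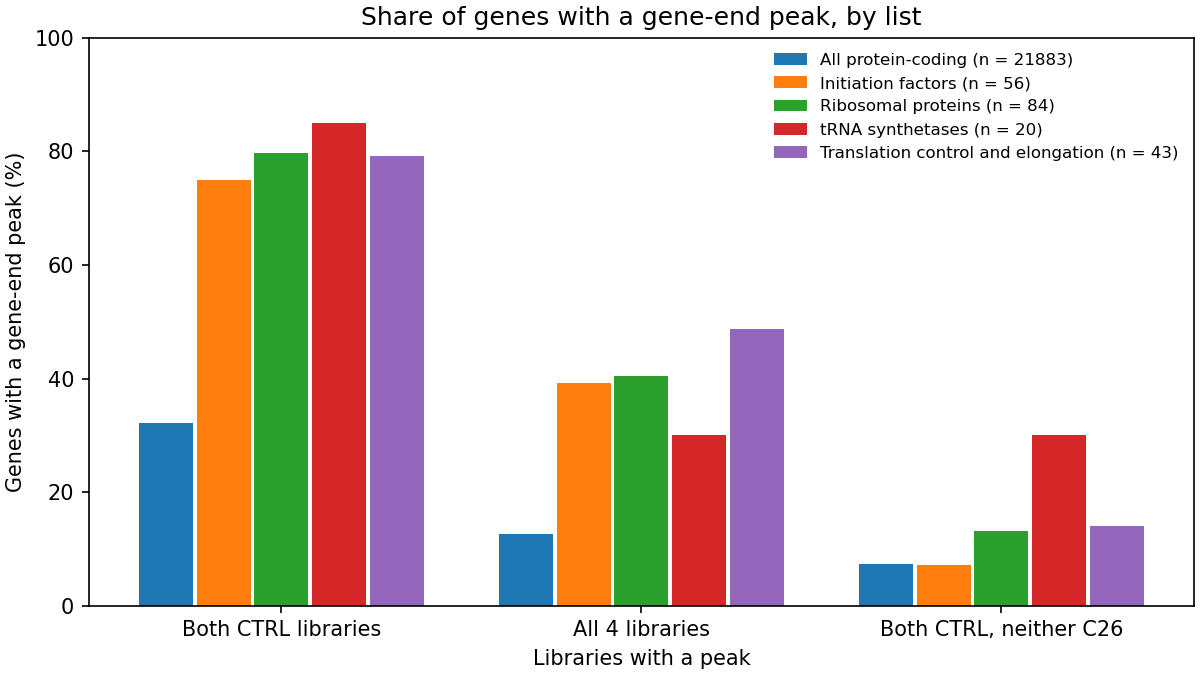
Bars give the percent of genes that had gene-end peaks in both CTRL libraries, in all 4 libraries, and in both CTRL but neither C26 library, for all protein-coding genes and 4 lists. The y axis starts at 0, each bar is 1 share with no replicate error, and the initiation factors stand at 75%, 39.3% and 7.14% against 32.1%, 12.7% and 7.4% of all genes.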

How the data were processed

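Phospho-CREB1 ChIP-seq peaks of 4 libraries (2 CTRL, 2 C26) were used as deposited. MACS2 2.1.4, Bowtie2 2.3.5.1 and SAMtools 1.6 are named with Picard and FastQC 0.11.2 in the submitters' processing notes, which give the build as mm10 (GRCm38). Per the labels, peaks were called per library against an input of the same group at q = 0.05, and a further filter named by an abbreviation is not explained. The deposited lists give each peak's fold enrichment over input and its −log10 q-value as the authors' caller wrote them, so neither was compared between lists. Read depth is unknown.

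A gene-end peak had its summit within 1000 bp of either end of a gene span (GRCm38.p6), and where a gene had several, the highest −log10 q counted. Starts, strand and promoter letters came from the RefSeq promoter table, which held 44 of the 56 members. No tests were run, since 2 libraries against 2 cannot give an exact p below 0.333 and the members and lists were chosen with earlier results of these data known. Every member is named, with values in every library for those with peaks in all 4 libraries, in both CTRL and neither C26 library, or in C26 alone. The planned rule for printed sequences asked for TGACGTCA, which no member window held, so the rule stated with the sequences was made after the values were seen. Peak matching was tested on simulated peaks. Python 3.11.15, pandas 2.3.3, numpy 2.4.6 and matplotlib 3.10.9 were used. Alternatives were windows of 500 and 2000 bp, −log10 q of at least 3 and 5, equal list lengths, any base of the peak, starts only, and each library left out.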

Additional observations from a re-analysis of the deposited data

How the results depend on the processing

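The 5 counts of members by pattern kept within 1.5 times their value with windows of 500 and 2000 bp, with −log10 q of at least 3, with any base of the peak counted and with starts only. With −log10 q of at least 5, the CTRL-only count was 8. With lists of equal length, 20 members had peaks in both CTRL libraries, 2 were CTRL-only and 1 was C26-only. Without shared peaks, a setting chosen after seeing the data, 14 members had peaks in both C26 libraries and 14 in all 4. Leaving out each library in turn gave 42 to 49 members for both CTRL, 22 to 39 for both C26, 22 to 37 for all 4, 4 to 19 for CTRL-only and 0 for C26-only. The CTRL-only count was 19 without C26 replicate 1 and 10 without CTRL replicate 1, and without C26 replicate 2 the C26 count was 39 and the count for all 4 was 37. The causes of these shifts were not tested. The number of libraries with a peak changed for 31 of 56 members at equal list length, for 12 at −log10 q of at least 5 and for 8 at 500 bp. Libraries were not paired across groups, and no test was run on these counts. By replicate number, 43 members in CTRL stood beside 39 in C26 for number 1, and 49 beside 23 for number 2, and nothing in the labels says that a number marks a shared animal or day. Unknown depth limits every statement about a missing peak.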
